A study of Mus musculus with 14 samples.

Results

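The genes described here are imprinted growth genes, which are read from only 1 parental copy in many tissues and act on growth. There were 10 by name, Mest, Peg3, Plagl1, Igf2, H19, Meg3, Dlk1, Cdkn1c, Grb10 and Igf2r, of which 9 were counted among the 26528 genes of the brain and the 28316 genes of the retina, and Igf2 was not analysed here. Mest was chosen because its transcripts were far more frequent in endothelial cells (ECs) of mutant than of control brains in these libraries, and the other genes were chosen as members of the same growth network. The brain EC values below are therefore a description of that contrast, with no test. Counts of genes that include Mest through its EC value are descriptions too. The question was whether Mest stood alone in these ECs or moved with the network.

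Imprinting is a mark of parental origin: a methylated control region, set in the egg or the sperm, silences 1 of the 2 copies of nearby genes. Copies inherited from the father tend to favour fetal growth and those from the mother tend to restrain it, and many genes of the network are abundant in embryonic tissues and decline after birth. Mest, also called Peg1, is expressed from the father's copy in the embryonic mesoderm and its derivatives, including developing vessels.

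The study removed the TGF-beta receptor Tgfbr1 from ECs and profiled nuclei by snRNAseq. Mutant mice, here CKO, were Cdh5CreER;Tgfbr1 CKO/-, which carry 1 null allele in every cell and lose the conditional allele in cells with an active Cdh5 promoter after 4-hydroxytamoxifen (4HT), given between postnatal days 3 and 5. Controls were labelled wild type, and tissue was taken at postnatal day 14. For retinal sections the paper describes its controls as phenotypically wild type, and as mostly Cdh5CreER;Tgfbr1 CKO/+ or the like for Tgfbr2. The exact genotype of the control libraries here was thus not settled, and their labels gave no 4HT days. Brain libraries were made from vascular fragments of 2 pooled brains, 1 library for each genotype. Retina libraries came from whole retinas, 1 control and 11 CKO. The v5.0 version of the PIPseq kit was used for retina CKO replicates 8 to 11, and v4.0 PLUS for all other libraries, including those of the brain.

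Each value below is the number of UMIs (unique transcript tags) of a gene, summed over the nuclei that the authors gave a cell type label and divided by all UMIs of those nuclei, given as CPM. The brain control library held 16649 nuclei and 49798325 UMIs, and the brain CKO library 14675 nuclei and 31033373 UMIs. ECs made up 2475 nuclei with a median of 1347 UMIs in the control and 2944 nuclei with a median of 1491 UMIs in the CKO. With 1 brain library for each genotype no test was possible. Intervals in the brain are exact 95% Poisson intervals for a level and exact binomial ones for a ratio or a share, and they cover counting error only.

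The nuclei labelled ECs carried 9 of 9 endothelial markers in both libraries. Their summed level was 10914 CPM in the control and 9175 CPM in the CKO, and Flt1 was the most abundant. The same nuclei carried 8 of 8 pericyte markers at 7901 and 6778 CPM, led by Rgs5, and 5 of 6 smooth muscle markers at 341 and 313 CPM, with Cnn1 at 0. Tgfbr1 itself stood at 69.1 CPM (62.5 to 76.2) in control and 62.9 CPM (57.1 to 69.1) in CKO nuclei of this label, with a ratio of 0.910 (0.792 to 1.05). The position of these UMIs along the gene was not stated, so this count does not check the deletion.

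The 2 brain libraries also differed in sex. Xist, the RNA of the inactive X, stood at 1963 CPM in the control and 1.29 CPM in the CKO, and the summed Y genes at 189 and 421 CPM, so the control pool held nuclei of both sexes and the CKO pool almost only male nuclei. In the retina, Xist was high in the control and in CKO replicates 1, 2, 4 and 7 and low in the other 7. Only 2 barcodes were shared between the brain libraries, 0 of them in ECs, and 10 retina barcodes were found in more than 1 library.

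Mest was nearly absent from control brain ECs and frequent in CKO brain ECs. It encodes a protein of the alpha/beta hydrolase family found in the endoplasmic reticulum. Control ECs gave 13 Mest UMIs, 2.24 CPM (1.19 to 3.83), and CKO ECs 349 UMIs, 50.9 CPM (45.7 to 56.6). The intervals lay far apart, and the ratio was 22.7 (13.1 to 43.1). By this ratio Mest was number 8 of the 11351 genes with at least 50 EC UMIs over both libraries. In the same ECs 9.45% of these genes were above 2-fold and 3.90% were below 0.5-fold.

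Mest UMIs were spread over many CKO ECs. A Mest UMI was found in 12 of 2475 control ECs, 0.485% (0.251 to 0.845), and in 262 of 2944 CKO ECs, 8.90% (7.90 to 9.99). After each nucleus was thinned to 1000 UMIs, which left 1470 control and 1889 CKO ECs, the shares were 0 of 1470, which allows up to 0.251%, and 4.18% (3.32 to 5.19). Oligodendrocytes, which served as a cell type without the gene, had a Mest UMI in 0 of 603 control nuclei, which allows up to 0.610%, and in 0 of 640 CKO nuclei, which allows up to 0.575%, at median depths of 2328 and 954.5 UMIs. Of the 262 CKO ECs, 209 had 1 Mest UMI, 34 had 2 and 19 had 3 or more, and the highest count was 9. At least 3 endothelial markers were counted in 261 of them, and in 2573 of the 2682 CKO ECs without a Mest UMI.

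The level in CKO ECs was about the same at every depth, and that in control ECs was not. In CKO nuclei with fewer than 500 UMIs it was 42.9 CPM, in those with 500 to 1000 UMIs 45.2 CPM, in those with 1000 to 2000 UMIs 56.6 CPM, and in those with 4000 or more 50.7 CPM. In control ECs there were 0 Mest UMIs below 2000 UMIs per nucleus, 1 between 2000 and 4000, and 12 in nuclei with 4000 or more. All 13 control UMIs were in ECs that also had a UMI of a choroid plexus marker, and 12 of the 13 were in ECs with a UMI of a fibroblast marker. Among CKO ECs, the Mest level was 45.4 CPM with and 57.5 CPM without a choroid plexus marker UMI. The part of choroid plexus or fibroblast RNA in the Mest levels was not tested.

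Markers of other cells also differed between the EC sums. All 6 choroid plexus markers were detected, at 1164 CPM in the control and 558 CPM in the CKO, with Ttr the most abundant. The 8 fibroblast markers stood at 950 and 687 CPM, led by Col1a2, and the 7 neuron markers at 169 and 123 CPM, led by Syt1. Each of these lists was lower in the CKO, and the part of RNA from these cells in the Mest level was not tested. ECs without any UMI of these 3 lists held 0 control and 105 CKO Mest UMIs, at least a 29.1-fold difference against a floor of 3 counts for the control library, with an exact lower limit of 23.3.

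Cell cycle markers moved the same way as Mest. All 8 were detected, with a summed level of 261 CPM in control and 542 CPM in CKO ECs, and Top2a was the most abundant in both. In CKO ECs, Mest was 67.3 CPM (58.7 to 76.9) in the 970 nuclei with a cycling marker UMI and 36.5 CPM (30.6 to 43.3) in the 1974 nuclei without one. These intervals did not meet, and Mest was higher in the nuclei with cycling markers. In nuclei without a cycling marker UMI the ratio of CKO to control was 18.0 (9.20 to 40.2), with 9 and 133 UMIs.

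Other splits of the ECs are given as descriptions. In CKO ECs with at most 1 pericyte or smooth muscle marker UMI, which had a median of only 458 UMIs, Mest was 157 CPM (99.5 to 236) from 23 UMIs, and in the other CKO ECs 48.6 CPM (43.5 to 54.2). These intervals were apart, but they cover counting of UMIs only, and the 23 UMIs came from 12 of 235 nuclei. Of the other CKO ECs, with a median of 1690 UMIs, 250 of 2709 had a Mest UMI. The share of nuclei with Mest therefore went the other way. The part of these markers in the Mest level was not tested. Among ECs with a Y gene UMI and no Xist UMI, a set chosen after seeing the data, 324 control nuclei held 0 and 1407 CKO nuclei 246 Mest UMIs, at least a 14.4-fold difference with an exact lower limit of 11.6. In this set Meg3 was 15.8 CPM in the control and 410 CPM in the CKO, a ratio of 25.9 (15.4 to 47.5), beside 1.46 in all ECs. Plagl1 gave 0 and 45 UMIs, with an exact lower limit of the ratio of 2.06, and Peg3 0 and 33 UMIs, with one of 1.49. With at least 50 UMIs, 2 of 5 genes were above 2-fold there, Mest and Meg3, beside 18.2% of all genes above and 2.85% below, and Cdkn1c, Grb10 and Igf2r had ratios of 1.09, 0.971 and 1.03. What else sets these control nuclei apart was not tested, and the part of sex in the EC values was not tested.

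The size of the ratio followed the way ECs were chosen. When nuclei were chosen by UMIs of at least 2 of the 9 endothelial markers in place of the label, Mest was 8.33 CPM in 3123 control nuclei and 47.2 CPM in 3077 CKO nuclei, a ratio of 5.66 (4.40 to 7.36). That control set held 661 nuclei with labels other than ECs, which carried 62 of its 75 Mest UMIs. The CKO level was close to that of labelled ECs, and the control level was higher. With each nucleus given equal weight, the ratio was 70.8.

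Across the 21 brain labels, the position of ECs in the order of Mest levels changed from the control to the CKO. In the control library, CP_8, the choroid plexus label, was highest at 66.0 CPM (55.8 to 77.4), followed by the glutamatergic neuron label Glut_20 at 41.8 CPM (26.2 to 63.2) and Glut_1 at 37.1 CPM (32.7 to 41.9). ECs were number 16. Intervals of neighbours in this order met for all pairs except Glut_1 and the next label, GABA_9, at 25 CPM (19.5 to 31.7). In the CKO library, CP_8 was again first at 75.5 CPM (56.7 to 98.5), ECs were number 2, and Glut_1 was number 3 at 38.7 CPM (33.1 to 44.9). The interval of ECs met neither of these. ECs held 1.41% (0.755 to 2.41) of all 919 Mest UMIs of the control library and 42.0% (38.7 to 45.5) of the 830 of the CKO library, while their share of all UMIs was 11.7% and 22.1%.

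**Figure D1:**
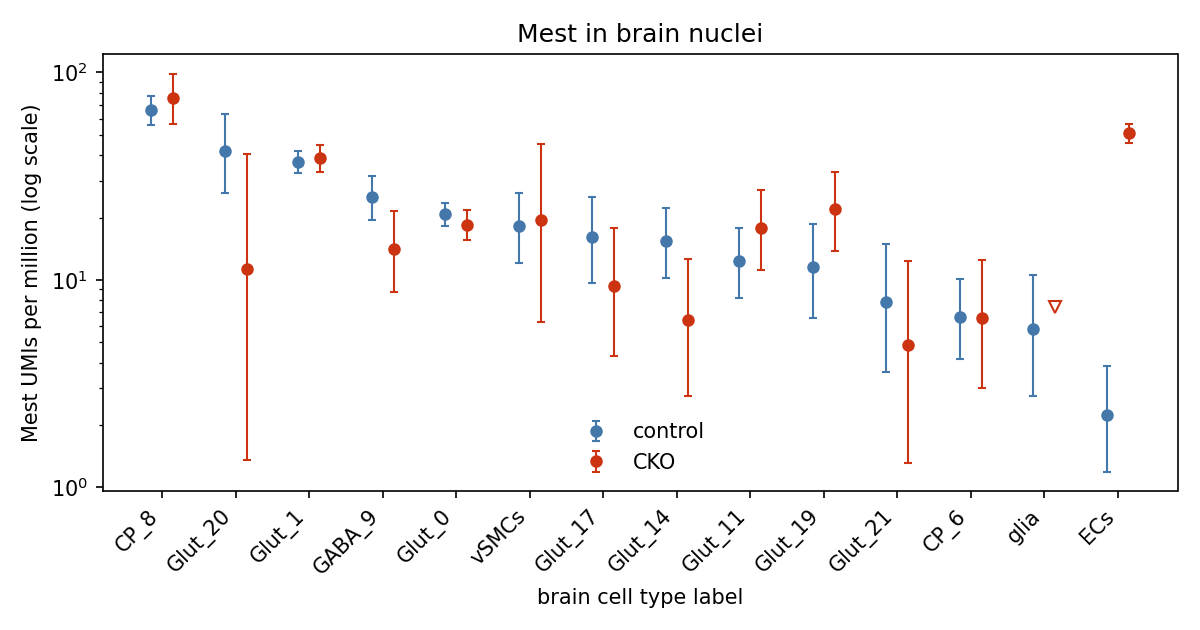
Mest level in the 14 brain labels with at least 10 Mest UMIs, as CPM on a log axis, in the control library (blue) and the CKO library (red). Bars are exact 95% Poisson intervals, and the open triangle is the upper limit where no UMI was counted. ECs are at 2.24 CPM in the control and 50.9 CPM in the CKO, and no other label is more than 2-fold higher in the CKO.

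Outside ECs, Mest was not above 2-fold in any label, and it was lower in some. With at least 50 UMIs, 6 labels could be compared, and ECs alone exceeded 2-fold. CP_8 had a ratio of 1.14 (0.822 to 1.57), Glut_0 of 0.890 (0.722 to 1.09), Glut_1 of 1.04 (0.854 to 1.27) and Glut_11 of 1.44 (0.786 to 2.61). These 4 intervals included 1. In GABA_9, the level was 25 CPM in the control and 14.1 CPM (8.73 to 21.6) in the CKO, a ratio of 0.563 (0.328 to 0.929), on the other side of 1 from ECs. With at least 10 UMIs, 14 labels could be compared, and ECs were again alone above 2-fold. Glut_14, at 15.4 and 6.40 CPM, had a ratio of 0.416 (0.164 to 0.937), Glut_20, at 41.8 and 11.2 CPM, one of 0.269 (0.0307 to 1.09), and Glut_19, at 11.5 and 21.9 CPM, went the other way with 1.91 (0.957 to 3.89). The label glia held 10 control and 0 CKO UMIs. Vascular smooth muscle cells (vSMCs), the neighbours of ECs in arterial walls, had 28 control and 5 CKO UMIs, 18.1 and 19.4 CPM. Pericytes had 0 in both libraries, with 201 control and only 22 CKO nuclei, and intervals reaching 30.3 and 400 CPM, so a difference there was not detectable at this depth.

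Copg2, a coat protein gene that lies on the opposite strand and overlaps Mest, was compared because the strand used in counting was not stated, and without strand UMIs of overlapping genes cannot be told apart. In the GRCm39 annotation Mest lies at chr6:30723546-30752058 on the forward strand and Copg2 at chr6:30741505-30873729 on the reverse strand. Copg2 stood at 56.4 CPM (50.4 to 62.8) in control ECs and 62.0 CPM (56.3 to 68.2) in CKO ECs. The intervals overlapped, and the ratio was 1.10 (0.95 to 1.28). A Copg2 UMI was found in 10.2% of control and 11.2% of CKO ECs.

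The other genes read from the father's copy were Plagl1, Peg3 and Dlk1. Plagl1, also called Zac1, encodes a zinc finger transcription factor that is known to act on other imprinted genes. Control ECs gave 0 Plagl1 UMIs, with an upper limit of 0.636 CPM, and CKO ECs 46 UMIs, 6.71 CPM (4.92 to 8.96). Against a floor of 3 counts for the control library, Plagl1 was at least 13-fold higher in the CKO ECs, and the exact interval of the ratio began lower, at 10.1. In nuclei chosen by at least 2 endothelial markers, Plagl1 had 51 and 58 UMIs, a ratio of 1.35 (0.912 to 2.01). In thinned ECs, with 0 and 6 UMIs, the exact lower limit was 0.916. In ECs without choroid plexus, neuron or fibroblast marker UMIs, with 0 and 3 UMIs, it was 0.344. These last sets held too few UMIs to fix a ratio, and the marker-chosen set took in 661 control nuclei of other labels. In labelled ECs with at least 1000 UMIs, Plagl1 had 0 and 46 UMIs, with an exact lower limit of 10.1. Without a cycling marker UMI, it had 0 and 21 UMIs, with a lower limit of 6.34. The difference in Plagl1 was thus seen in labelled ECs and not in the marker-chosen nuclei. The 46 Plagl1 UMIs of labelled ECs lay just under the 50 needed for the fold count, and Peg3, with 25 and 34 UMIs, was just above it.

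Plagl1 was rare even in CKO ECs. A UMI was found in 44 of 2944 nuclei, 1.49% (1.09 to 2.00), and in 0 of 2475 control ECs, which allows up to 0.149%. In thinned nuclei it was 6 of 1889, 0.318% (0.117 to 0.690), and 0 of 1470. In oligodendrocytes, 3 of 603 control nuclei and 0 of 640 CKO nuclei had a Plagl1 UMI, and 1 of 494 thinned control nuclei, 0.202% (0.00512 to 1.12). That interval overlapped the thinned one of CKO ECs. The 44 ECs were deep, with a median of 7257 UMIs, and 11 of them also had a Mest UMI. Mest stood at 61.4 CPM (37.5 to 94.9) in these nuclei and 50.4 CPM (45.1 to 56.2) in the CKO ECs without Plagl1, with overlapping intervals. Of the 46 UMIs, 40 were in ECs with a fibroblast marker UMI, at 9.74 CPM (6.96 to 13.3), and 6 in those without, at 2.18 CPM (0.802 to 4.76). Choroid plexus markers gave a like split, 9.18 CPM (6.36 to 12.8) with and 3.81 CPM (1.97 to 6.66) without, and the part of RNA from these cells in the Plagl1 level was not tested.

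In other brain cells, Plagl1 was present in both libraries. It was highest in CP_8, at 116 CPM in the control and 126 CPM in the CKO, in CP_6, whose nuclei carried markers of ciliated cells, at 65.1 and 72.4 CPM, and in the label glia, at 69.8 and 130 CPM. The glia nuclei carried 8 of 8 fibroblast markers at 9061 and 10148 CPM, led by Bnc2, so the label does not name them well. Their Plagl1 ratio was 1.86 (1.36 to 2.54), the highest of the 5 labels with enough UMIs, which otherwise ran from 0.818 to 1.11.

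Peg3, a zinc finger gene known for its part in growth and in maternal behaviour, was within 2-fold in labelled ECs. It stood at 4.31 CPM in control ECs and 4.96 CPM in CKO ECs, a ratio of 1.15 (0.667 to 2.01), and was counted in 14 and 22 nuclei. In nuclei chosen by at least 2 endothelial markers, which include other labels, it was 39.6 and 12.9 CPM, on the other side of 1, with a ratio of 0.327 (0.259 to 0.410). In control neurons it was far more frequent, from 65.2 CPM in Glut_5 to 464 CPM in Glut_1. Over the 15 labels with enough UMIs its ratio ran from 0.613 to 1.15, and none was past 2-fold by CPM, while TMM scaling put Glut_5, with 104 and 7 UMIs, at 0.399. Dlk1, which encodes a transmembrane protein with EGF repeats that holds back adipocyte differentiation, gave 10 UMIs in control and 4 in CKO ECs. Its ratio of 0.339 (0.0775 to 1.17) was not distinguishable from 1 at this depth. In neurons, Dlk1 was 13.1 CPM in control and 19 CPM in CKO Glut_1, a ratio of 1.45 (1.06 to 1.97), and Glut_0 nuclei held 22 control and 0 CKO UMIs, at least 5.23-fold lower against a floor of 3 counts for the CKO library, with an exact upper limit of the ratio of 0.256.

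Genes read from the mother's copy in many tissues tend to restrain growth, and 5 were counted. Which copy was read in each label was not measured. Cdkn1c encodes the cyclin-dependent kinase inhibitor p57, Grb10 an adaptor that dampens signalling from the insulin and IGF1 receptors, and Igf2r the receptor that carries IGF2 to lysosomes. H19 and Meg3 are long noncoding RNAs from the loci of Igf2 and Dlk1. All of these but H19 were well covered in ECs.

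Cdkn1c was highest in ECs. It stood at 135 CPM in control and 147 CPM in CKO ECs, a ratio of 1.08 (0.985 to 1.19). vSMCs were close, at 109 and 108 CPM from 168 and 28 UMIs, a ratio of 0.998 (0.644 to 1.49), and the label glia was at 63.5 and 94.2 CPM. ECs held 67.2% (64.4 to 69.9) of all its UMIs in the control and 91.6% (89.8 to 93.2) in the CKO, far above their share of all UMIs. A Cdkn1c UMI was found in 19.2% of control and 21.6% of CKO ECs, and in 12.7% and 11.8% of thinned ECs. In oligodendrocytes it was 0 of 603 and 0 of 640.

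Grb10 stood at 271 CPM in control ECs and 303 CPM in CKO ECs, a ratio of 1.12 (1.04 to 1.19). A UMI was present in 36.5% and 42.2% of ECs, and in 25.5% and 25.8% after thinning. The thinned shares were nearly the same, and both were far above the share in oligodendrocytes, 1 of 603 and 1 of 640. Igf2r stood at 104 CPM and 123 CPM, a ratio of 1.19 (1.07 to 1.32). After TMM scaling the ratios were 1.04 (0.972 to 1.11) for Grb10 and 1.11 (0.995 to 1.23) for Igf2r, and both intervals included 1. In ECs with at most 1 pericyte or smooth muscle marker UMI, Igf2r had 4 and 17 UMIs, 14 and 116 CPM, a ratio of 8.28 (2.70 to 33.8). Its noncoding antisense partner Airn, which overlaps it, stood at 276 CPM and 376 CPM, a ratio of 1.36 (1.28 to 1.45), and UMIs of the pair cannot be told apart without strand.

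Meg3 stood at 261 CPM in control ECs and 382 CPM in CKO ECs. Its ratio of 1.46 (1.37 to 1.56) was the nearest to 2-fold of the genes that did not pass it. The direction differed between labelled ECs and nuclei chosen by markers. In nuclei chosen by at least 2 endothelial markers Meg3 was 1456 CPM in the control and 726 CPM in the CKO, a ratio of 0.498 (0.483 to 0.514). That set took in 661 control and 167 CKO nuclei with labels other than ECs. Its control nuclei held 13109 Meg3 UMIs, beside 1515 in all labelled control ECs. In ECs without choroid plexus, neuron or fibroblast marker UMIs it was 21.2 and 49.3 CPM, a ratio of 2.33 (1.52 to 3.66), and in ECs with at most 1 pericyte or smooth muscle marker UMI the ratio was 2.18 (1.51 to 3.15). In ECs with a Y gene UMI and no Xist UMI, given above, the ratio was 25.9 (15.4 to 47.5). The part of RNA from other cells in the Meg3 level of ECs was not tested. It was found in 7.80% of control ECs and 11.1% of CKO ECs, and in 6.87% and 10.2% after thinning. It is among the most frequent nuclear RNAs of neurons, at 23220 CPM in control Glut_1, and oligodendrocytes had a Meg3 UMI in 5.31% of control and 3.59% of CKO nuclei. H19 gave 3 and 8 UMIs in ECs, 0.517 and 1.17 CPM, a ratio of 2.26 (0.542 to 13.2), and no label reached 50 H19 UMIs.

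In brain ECs, then, 6 of the 9 counted genes had at least 50 UMIs, and 1 of these, Mest, was above 2-fold and 0 were below 0.5-fold. The median ratio of the 6 was 1.17, beside 1.10 for all 11351 genes, where 9.45% were above and 3.90% below. With a minimum of 10 UMIs all 9 entered and 3 were above 2-fold, Mest, Plagl1 and H19, and Dlk1 was below 0.5-fold, beside 12.5% and 7.71% of 14654 genes. The count of 1 includes the gene on which the choice rested.

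**Figure D2:**
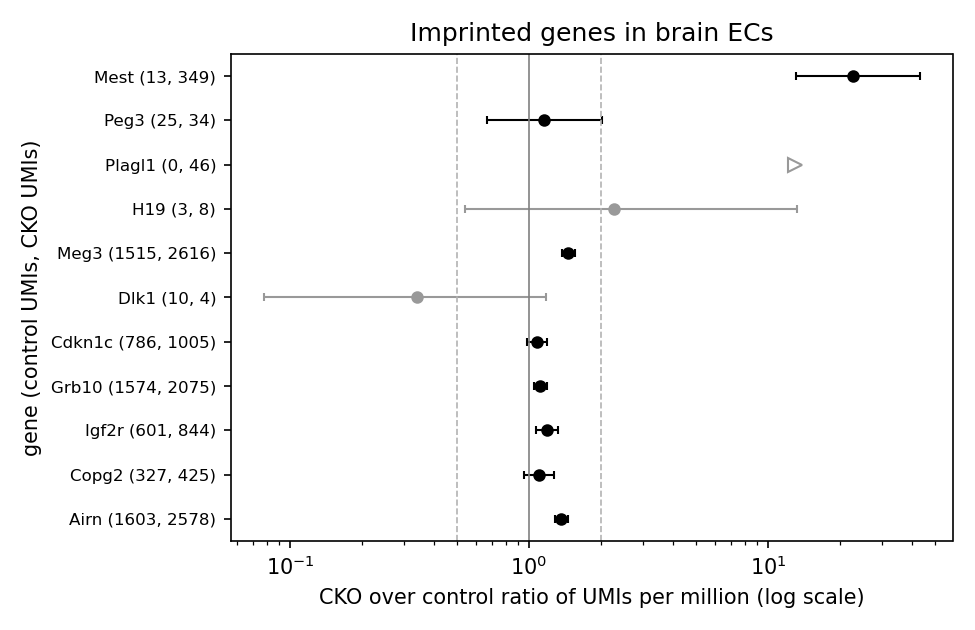
Ratio of CKO to control CPM in brain ECs for the 9 counted genes and the overlapping genes Copg2 and Airn, on a log axis, with exact 95% binomial intervals. UMI numbers of both libraries stand beside each name. Grey marks fewer than 50 UMIs, the arrowhead is Plagl1 at 13-fold against a floor of 3 counts, and dashed lines mark 0.5-fold and 2-fold. Mest is at 22.7, and the 5 other counted genes with at least 50 UMIs lie between 1.08 and 1.46.

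In the other brain labels, few pairs were past 2-fold. Of 69 pairs of a gene and a label with at least 50 UMIs, 4 were above 2-fold and 4 were below 0.5-fold, beside 2.36% and 7.07% of the 96876 such pairs over all genes. The 61 others lay within 2-fold. With TMM scaling, chosen after seeing the data, 4 were above and 6 below, beside 1.56% and 8.42%. The added pairs were Peg3 in Glut_5 and Grb10 in pericytes, the latter at 0.366 from 66 and 5 UMIs. By CPM their ratios were 0.613 and 1.00, and TMM multiplied every ratio in these labels by 0.651 and 0.365. The median ratio was 1.05 for the 69 pairs and 0.987 for all pairs. For Meg3, over the 20 labels with enough UMIs, ECs included, the interval of its ratio lay above 1 in 18 and below 1 in 1, vSMCs, beside 16.6% above and 18.1% below among 108227 pairs over all genes. With TMM scaling it lay above 1 in 16 and below 1 in 3, vSMCs at 0.770, Glut_5 at 0.757 and Glut_21 at 0.967, beside 14.5% and 21.4%. Its many UMIs make these intervals narrow, and its median ratio by CPM was 1.16. Of the 7 counted genes with at least 50 UMIs in at least 2 labels, 6 had an interval above 1 in a label and one below 1 in another, beside 42.5% of 12970 such genes. With TMM scaling there were 4, Mest, Peg3, Meg3 and Igf2r, beside 41.2%. Mest entered both counts through ECs alone, the value on which it was chosen, so its place in them was fixed beforehand.

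The pairs above 2-fold were Meg3 in OPCs, microglia and oligodendrocytes and Igf2r in glia. Meg3 was 857 CPM in control and 2279 CPM in CKO OPCs, and the 7 neuron markers were 1344 and 2509 CPM in the same nuclei. In microglia Meg3 was 425 and 1981 CPM, with only 11 CKO nuclei in this label, and neuron markers were 613 CPM in the control and 2733 CPM in the CKO. The ratio of 4.66 in this label was 2.11 after TMM scaling, which multiplied every ratio there by 0.452. The median log2 ratio of the 364 genes with at least 50 UMIs in microglia was already -1.51 by CPM. TMM scaling moved that median lower still, so it did not set most genes level here. In oligodendrocytes Meg3 was 163 and 354 CPM, and neuron markers went the other way, at 244 and 67.3 CPM. The part of neuronal RNA in the Meg3 levels of OPCs and microglia was not tested.

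Igf2r in glia was 54.2 CPM in the control and 148 CPM in the CKO, a ratio of 2.73 (1.99 to 3.75). Of the pairs below 0.5-fold, Grb10 in Glut_0 rested on the most UMIs, 685 and 183, at 58.9 and 22.1 CPM, with a ratio of 0.375 (0.316 to 0.442). Grb10 in Glut_17 was 32.2 and 14.6 CPM, a ratio of 0.452 (0.226 to 0.854), and Cdkn1c in CP_8 was 38.7 and 16.8 CPM, a ratio of 0.433 (0.216 to 0.795). Igf2r in pericytes was 517 and 217 CPM, a ratio of 0.420 (0.0498 to 1.58), with 2 CKO UMIs, and its interval included 1. After TMM scaling this ratio was 0.153, and its interval lay below 1. That scaling multiplied every ratio in pericytes by 0.365, where the median log2 ratio over genes was already -0.362 by CPM. The CKO sum there held only 22 nuclei and 9213 UMIs, so the scaled interval is no firmer than the one by CPM.

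A wider list of 54 genes known to be imprinted in at least 1 tissue, of which 52 were counted, held genes on both sides in ECs. With at least 50 UMIs, 24 could be compared, and 3 were above 2-fold, 3 below 0.5-fold and 18 within, beside 9.45% above and 3.90% below among all genes. Their median ratio was 1.26, beside 1.10 for all genes. The 3 with the most UMIs stayed within 2-fold: Gnas, for the stimulatory G protein subunit, was 704 and 711 CPM, a ratio of 1.01 (0.969 to 1.05), Airn had a ratio of 1.36, and Ube3a, for a ubiquitin ligase, was 228 and 328 CPM, a ratio of 1.44 (1.34 to 1.54).

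Of the 3 above 2-fold, 2 were neighbours. Sgce, for epsilon-sarcoglycan, stood at 29.0 CPM in control and 91.1 CPM in CKO ECs, a ratio of 3.14 (2.65 to 3.75). Ppp1r9a, for the actin-binding protein neurabin, stood at 13.1 and 80.6 CPM, a ratio of 6.15 (4.83 to 7.92). In GRCm39 they lie on the same chromosome as Mest, at chr6:4672057-4747207 and chr6:4902745-5165667. Of 2 more list genes in that cluster, Asb4 was within 2-fold, at 38.8 and 53.0 CPM with a ratio of 1.37 (1.15 to 1.62), and Peg10 gave 1 and 10 UMIs, a ratio of 8.47 (1.2 to 367).

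The third was Kcnq1ot1, the noncoding RNA of the cluster that holds Cdkn1c, at 40.9 and 88.0 CPM with a ratio of 2.15 (1.85 to 2.51). Kcnq1, on the opposite strand over it, was at 221 and 119 CPM, a ratio of 0.538 (0.492 to 0.588), and without strand the UMIs of this pair cannot be told apart. The 3 below 0.5-fold were Nnat, at 11.5 and 3.79 CPM with a ratio of 0.329 (0.200 to 0.524), Osbpl5, at 7.93 and 3.06 CPM with 0.387 (0.219 to 0.661), and Usp29, the neighbour of Peg3, at 7.07 and 2.92 CPM with 0.413 (0.229 to 0.721). Each of these 3 had fewer than 100 UMIs over both libraries.

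The IGF axis, the receptors, binding proteins and adaptors through which several of these genes act, held 18 counted genes. In ECs 10 had at least 50 UMIs and 0 were past 2-fold in either direction, beside 9.45% above and 3.90% below among all genes. The receptor genes had the most UMIs together with Igfbp7: Igf1r was 3486 CPM in the control and 2852 CPM in the CKO, a ratio of 0.818 (0.802 to 0.834), Insr 822 and 668 CPM, a ratio of 0.813 (0.780 to 0.846), and Igfbp7 1197 and 1348 CPM, a ratio of 1.13 (1.09 to 1.16). Both receptors were lower in the CKO library. Igfbp3 was 280 CPM in the control and 146 CPM in the CKO, a ratio of 0.521 (0.481 to 0.564), and Igfbp4 was 113 and 188 CPM, a ratio of 1.67 (1.52 to 1.84), so the binding proteins did not move together. The median ratio of the 10 was 0.839, beside 1.10 for all genes.

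The genes whose levels were most like those of Mest over the brain were found by Pearson's correlation of log2(CPM + 1) over 40 sums of a label and library with at least 20000 UMIs, among 14448 genes. These sums share their libraries, and ECs make 2 of them. The closest were Cers4 at r = 0.83, Dph1 and Dbn1 at 0.81, Pcgf2 at 0.80 and Vopp1 at 0.79. In ECs, Dbn1 had 21 control and 154 CKO UMIs, a ratio of 6.21 (3.92 to 10.3), and Pcgf2 had 6 and 65 UMIs, a ratio of 9.17 (3.99 to 25.9). Dph1 had a ratio of 2.59, Cers4 of 1.43 and Vopp1 of 1.07. The EC sums were part of the correlation, so these ratios are no separate finding. Of the network, Peg3 was the closest to Mest at r = 0.64, followed by Dlk1 at 0.56, Meg3 at 0.54, Grb10 at 0.47 and Plagl1 at 0.41, and Peg3 was number 826 in the order of all genes.

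The retina gave replicated values that did not enter the choice of Mest, but no label for ECs. Of 77676 retinal nuclei, 13 had UMIs of at least 4 of the 9 endothelial markers. Müller glia (MG) carried Flt1 at 923 CPM and Kdr at 392 CPM, and the other 7 markers together at only 13 CPM. The retina values therefore describe neurons, glia and immune cells next to mutant vessels, and retinal ECs were not measured.

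A library entered a label with at least 20 nuclei of it, which left the control and 10 or 11 CKO libraries in 10 labels. CKO replicate 4 had only 104 nuclei, and astrocytes, with 12 control nuclei, were not tested. Counts were tested by edgeR's quasi-likelihood test with the kit as a covariate, adjusted over all genes of a label. The control is a lone library, assumed to vary like the CKO libraries.

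Of 60 pairs of a network gene and a retinal label, 0 were called at an adjusted p under 0.05 by edgeR, beside 0.00328% of 121773 pairs over all genes, and 2 had an unadjusted p under 0.05. DESeq2 called 1 of the 60, Meg3 in MG, beside 0.896% of the same 121773 pairs, so 1 call in 60 is near the share over all genes. With 4 calls among all genes, edgeR called little of anything in this design.

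Mest in the retina was highest in MG. The control stood at 38.4 CPM (29.1 to 49.6), and the 10 CKO libraries ran from 35.7 through a median of 55.7 to 69.2 CPM. Of these, 8 were above the control and 2 below, so the groups overlapped. The log2 difference was 0.42 (SE 0.31), with an adjusted p of 0.885 by edgeR. All 3 CKO libraries of the control's own batch were above it, between 51.5 and 69.2 CPM, and within that batch the log2 difference was 0.65 (SE 0.32) with an adjusted p of 0.773 by edgeR.

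Rods followed. Their control value was 29.1 CPM (25.6 to 32.9), and the CKO libraries ran from 14.1 through a median of 41.3 to 51.2 CPM, with 8 of 10 above the control and a log2 difference of 0.40 (SE 0.47) with an adjusted p of 1.00 by edgeR. In retinal ganglion cells (RGC) the control was 23.5 CPM and the CKO median 25.7 CPM over 11 libraries, between 18.3 and 83.0 CPM. The highest of these was replicate 4 with 3 UMIs. In the 4 bipolar and amacrine labels, the control lay between 7.65 CPM in rod bipolar cells (RBC) and 24.2 CPM in cone bipolar cells (CBC), and inside the CKO range each time.

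**Figure D3:**
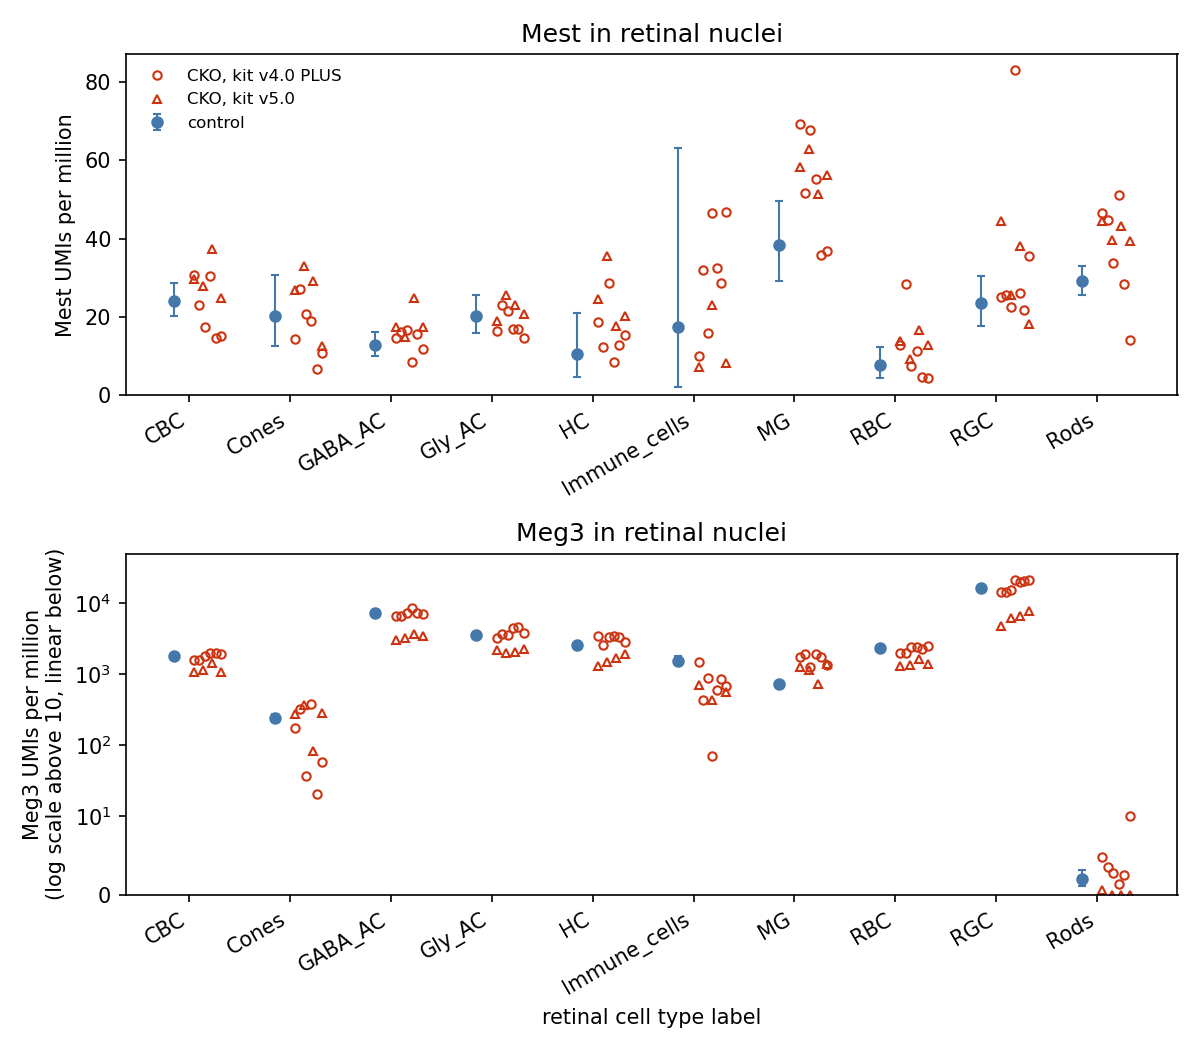
Mest (upper) and Meg3 (lower) levels in the retina in CPM, for each of the 10 tested labels and each library with at least 20 nuclei of it. Blue points are the control library with its exact 95% Poisson interval, open red circles CKO libraries of the v4.0 PLUS kit and open red triangles those of the v5.0 kit. The Meg3 axis is logarithmic above 10 and linear below. Mest in the control lies inside the range of the CKO libraries in every label, and Meg3 in MG is 724 CPM in the control, below 9 of 10 CKO libraries.

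Meg3 in MG came closest to a difference. The control stood at 724 CPM (682 to 768), and the CKO libraries ran from 720 through a median of 1370 to 1927 CPM. Of 10 CKO libraries 9 were above the control, and replicate 10, a v5.0 library, was level with it. The log2 difference was 1.16 (SE 0.33) with an unadjusted p of 0.00396 and an adjusted p of 0.592 by edgeR, and the adjusted p was 0.0132 by DESeq2, with a range over all alternatives of 0.0132 to 1.00. In the control's batch, the 3 CKO libraries lay between 1253 and 1925 CPM, with an adjusted p of 0.139 by edgeR.

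Neuronal RNA was also counted in the MG nuclei. The 7 neuron markers summed to 2220 CPM in the control and to between 1797 and 3138 CPM in the CKO libraries, with a median of 2271 CPM, and Syt1 was the most abundant. The control lay within this range, but the 3 CKO libraries of its own batch were all above it, between 2694 and 3138 CPM. The 6 amacrine markers summed to 1009 CPM in the control and to between 726 and 1050 CPM in the CKO, and here the 3 CKO libraries of its batch were all below it, between 867 and 930 CPM. The part of neuronal RNA in the Meg3 level of MG was not tested. The 5 rod markers summed to 1503 CPM in the control and to between 1268 and 2059 CPM in the CKO libraries. The 3 CKO libraries of the control's batch were all above it, between 1588 and 2059 CPM, as they were for Mest. The part of rod RNA in the Mest level of MG was not tested.

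Meg3 levels were apart between the kits in most retinal labels. In 7 of the 10 tested labels the CKO libraries of the kits did not overlap, v5.0 was the lower, and the control lay inside the range of its own kit. In GABAergic amacrine cells (GABA_AC), the control was 7393 CPM, the 6 CKO libraries of the v4.0 PLUS kit were between 6522 and 8490 CPM, and the 4 of the v5.0 kit were between 2995 and 3704 CPM. In RGC, the control was 16530 CPM, the 7 CKO libraries of the older kit lay between 14441 and 21004 CPM, and the 4 of the newer kit between 4791 and 7674 CPM. The other 5 labels were CBC, glycinergic amacrine cells (Gly_AC), horizontal cells (HC), RBC and rods, of which rods had few Meg3 UMIs.

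Of the other genes, Plagl1 was highest in MG, which held 40.8% of its 3028 UMIs and 5.56% of all UMIs. Its control value in MG was 70.8 CPM, inside the CKO range of 47.8 to 131 CPM, with a log2 difference of -0.11 (SE 0.32). Peg3 was highest in RGC, at 340 CPM in the control and from 249 through 312 to 403 CPM in the CKO libraries. H19 gave 48 UMIs in all retinal nuclei, 31 of them in astrocytes, whose 4 CKO libraries with enough nuclei ran up to 55.8 CPM. Dlk1 was almost absent, with 55 UMIs in all, 32 of them in Gly_AC.

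Cdkn1c was sparse in the retina. In MG it was 21.8 CPM (15.0 to 30.7) in the control and from 1.19 through 12.4 to 26.6 CPM in the CKO, with 1 of 10 CKO libraries above the control and a log2 difference of -0.68 (SE 0.73). In GABA_AC it was 7.21 CPM in the control and at most 6.42 CPM in the CKO, with 0 of 10 above, a log2 difference of -0.67 (SE 0.43) and an adjusted p of 1.00 by edgeR. Grb10 in Gly_AC was 98.7 CPM in the control and from 111 through 129 to 151 CPM in the CKO, with 10 of 10 above. Its log2 difference was 0.31 (SE 0.14), with an adjusted p of 1.00 by edgeR.

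Of the 60 tested pairs of a gene and a label, 7 had every CKO library on 1 side of the control, 4 above and 3 below, beside 11.1% of 121773 pairs over all genes. In HC, with 70 control nuclei, Grb10 was 69.4 CPM in the control and from 74.3 to 139 CPM in the CKO, and Igf2r was 14.7 CPM in the control and from 14.8 to 44.2 CPM in the CKO, with adjusted p of 1.00 by edgeR for both. In immune cells, with 29 control nuclei, Meg3 and Peg3 were below the control in 10 of 10 CKO libraries and Grb10 was above it in 10 of 10, and the control value of Grb10 rested on 3 UMIs. Igf2r had log2 differences between -0.09 in RBC and 0.60 in HC over the tested labels.

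Promoter sequences of the genes were searched for short sequence elements and CpG, apart from their levels. RefSeq promoter windows (GRCm38.p6), read over the 250 bases before each start, were found for 7 of the 9 counted genes, 11 windows in all. H19 and Cdkn1c are named only. Letters searched on both strands were TGCCGC, the core of the sequence that ZFP57 binds to keep methylation on imprinted control regions, and CAGAC, a short element recognised by the SMAD proteins that carry TGF-beta signals. Neither contains the other.

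TGCCGC was present in 4 of the 11 windows, of Mest, Plagl1 and Meg3, and in 8.68% of all 32841 windows. CAGAC was present in 5 of the 11, of Peg3, Meg3, Dlk1 and Igf2r, and in 42.2% of all. No CAGAC was found in the windows of Mest or Plagl1, which says only that these letters are not in them. The Mest windows with TGCCGC, which overlap, each held 14 CpG and that of Plagl1 19, beside a median of 6 over all windows.

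The windows of Mest and Plagl1 are shown because these genes were higher in labelled CKO ECs. For Plagl1 the ratio was 1.35 (0.912 to 2.01) in nuclei chosen by endothelial markers. Capitals mark TGCCGC or its reverse complement. The Mest window is chr6:30737800-30738049 on the forward strand of GRCm38.p6, which lies inside the gene, downstream of another annotated start, and the Plagl1 window is chr10:13090582-13090831 on the forward strand.
Mest: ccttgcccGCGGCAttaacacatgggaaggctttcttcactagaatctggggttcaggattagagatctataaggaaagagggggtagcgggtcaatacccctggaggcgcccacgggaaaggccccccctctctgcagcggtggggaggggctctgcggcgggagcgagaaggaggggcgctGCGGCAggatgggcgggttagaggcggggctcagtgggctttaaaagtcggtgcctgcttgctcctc
Plagl1: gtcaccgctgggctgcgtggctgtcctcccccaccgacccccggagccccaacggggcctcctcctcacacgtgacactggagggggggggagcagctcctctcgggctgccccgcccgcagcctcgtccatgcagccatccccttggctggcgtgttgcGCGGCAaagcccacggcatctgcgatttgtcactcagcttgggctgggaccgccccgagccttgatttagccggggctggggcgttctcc

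Mest is also the host of a microRNA, miR-335, whose hairpin lies in the gene on the same strand. Its mature forms are shown with the seed, bases 2 to 8, in capitals, and the nuclear UMIs did not measure them.
mmu-miR-335-5p: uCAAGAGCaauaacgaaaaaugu
mmu-miR-335-3p: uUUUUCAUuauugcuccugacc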

How the data were processed

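The authors aligned reads with PIPseeker (3.3.0), removed empty droplets and background with CellBender (0.3.2) and doublets with SOLO (scVI-tools), took out further mixed nuclei by hand, along with clusters of nuclei of retina CKO replicates 4 and 5, labelled nuclei in Seurat, and deposited UMI count matrices with cell type labels. The submitters' processing notes name mm10, the study's methods GRCm39. Values here are UMI counts as deposited, after that removal of background, summed per label and library and divided by the total, as CPM. The members and lists were chosen with earlier results of these data known.

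Brain ratios used exact binomial intervals in scipy (1.17.1), with a minimum of 50 UMIs and a fold of 2. Retina sums were tested with edgeR (4.0.16) in R (4.3.3) after filterByExpr and TMM, with Benjamini-Hochberg adjustment, and with DESeq2 (1.42.0) as an alternative. A label needed the control and at least 4 CKO libraries. Retina batches are those of the deposited metadata. Code for both was tested on simulated data. Named were all members in every label, Copg2, list genes past 2-fold or among the 3 of highest level in brain ECs, and the 5 genes most like Mest. Airn, Kcnq1, Asb4, Peg10, Igfbp3, Igfbp4 and the retina examples were added after values were seen. Alternatives changed the choice of nuclei, scaling, minimum, fold, filter and covariates. Igf2 was not analysed here.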

Additional observations from a re-analysis of the deposited data

Results flagged for a closer look

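In 6 of the counted genes, the ratio of CKO to control in the brain lay above 1 in at least 1 label and below 1 in at least 1 other, with intervals that did not include 1 by CPM. Over all 12970 genes with at least 50 UMIs in at least 2 labels the share was 42.5%. With TMM scaling there were 4 such genes, without Cdkn1c and Grb10, beside 41.2%. Both counts include Mest, which lay above 1 in ECs alone, the value on which it was chosen. The labels farthest from 1 on each side are given here. Mest was at 22.7 in ECs and 0.563 in GABA_9, and Meg3 was at 4.66 in microglia (2.11 after TMM scaling) and 0.869 in vSMCs, the only label of 20 with its interval below 1 by CPM, beside 18 above (with TMM scaling 3 below and 16 above). Grb10 was at 1.19 in CP_8 and 0.375 in Glut_0, Igf2r at 2.73 in glia and 0.504 in Glut_0, Cdkn1c at 1.48 in glia and 0.433 in CP_8, and Peg3 at 1.11 in Glut_1 and 0.641 in CP_8. With 1 library for each genotype, the difference between labels was not tested.

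In the retina, 6 of 54 sets of CKO libraries held a value far from the other libraries of the set, and chance gives about 1 in 20. The share over all genes was not counted, so this number is not shown to be particular to these genes. Mest in RBC was 28.4 CPM in CKO replicate 2, from 20 UMIs, beside 16.8 CPM in the next library. Replicate 2 was also apart for Peg3 in cones, at 191 CPM. Replicate 7 had the lowest Igf2r in RBC, at 13.6 CPM from 12 UMIs, and the highest Meg3 in rods, at 10.2 CPM from 29 UMIs. Peg3 in immune cells was 23.2 CPM in replicate 4, from 1 UMI, and Plagl1 in cones was 15.9 CPM in replicate 6, from 7 UMIs.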

How the results depend on the processing

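The Mest ratio in brain ECs was above 2-fold under all 9 alternatives. It was outside its counting interval under 2, at 5.66 with nuclei chosen by endothelial markers, where non-EC labels entered the control set, and at 70.8 with nuclei weighted equally, a setting whose control mean rests on 12 nuclei. In 4 settings the control had 0 UMIs, and the fold against a floor of 3 counts was between 14.4 and 29.1, with exact lower limits between 11.2 and 23.3. The number of network genes past 2-fold in ECs was 3 with nuclei chosen by endothelial markers (Mest higher, Peg3 and Meg3 lower), beside 3.96% of all genes above and 14.2% below. It was 4 with a minimum of 10 UMIs, beside 12.5% and 7.71%. It was 2, Mest and Meg3, in ECs without choroid plexus, neuron or fibroblast marker UMIs, beside 17.9% and 5.07%, and in ECs with a Y gene UMI and no Xist UMI, beside 18.2% and 2.85%. These last 2 alternatives were chosen after seeing the data. In ECs with at most 1 pericyte or smooth muscle marker UMI the count was 1 of only 2 measured, beside 18.2% and 18%, and this was Meg3, since Mest had 23 UMIs. Under its minimum, Igf2r there had 4 and 17 UMIs, a ratio of 8.28 (2.70 to 33.8). ECs were the only label with Mest above 2-fold under all 3 alternatives.

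In the retina, the number of calls was 1 with DESeq2 and 0 in every other fit, including 0 to 0 when each CKO replicate was left out in turn, and 0 with v4.0 PLUS libraries only and with Xist class as a covariate, both chosen after seeing the data. No paired analysis was possible, because there was 1 control library in the retina and 1 library for each genotype in the brain. Depth limits H19 and Dlk1 in ECs and all genes in pericytes, and the brain libraries also differ in sex, whose part was not tested. In other brain labels 8 pairs of a network gene and label were past 2-fold by CPM, beside 2.36% of all pairs above and 7.07% below, and 10 by TMM, beside 1.56% and 8.42%. The Meg3 interval lay above 1 in 18 labels by CPM and 16 by TMM. Intervals lay on both sides of 1 for 6 genes by CPM and 4 by TMM, with Mest in both through ECs alone. These TMM counts were chosen after seeing the data.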
